A study of Homo sapiens with 3 samples.

Results

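The cytosolic ribosomal protein genes were described across 3 RNA-seq libraries of HepG2, a human hepatocellular carcinoma line. Genes were taken by symbol: RPL or RPS followed by a number, with the suffixes A, X, L, L1 or AL allowed, plus RPLP0, RPLP1, RPLP2 and RPSA, and with pseudogenes and readthrough transcripts left out. This gave 85 of the 62564 rows with a gene identifier, 53 of the large subunit and 32 of the small subunit. The cells, labelled wild type, were kept for 48 h with 20 µM A740003, with 20 µM A438079, or with PBS. The study's title describes both compounds as antagonists of the P2X7 receptor, an ATP-gated ion channel, and PBS was the control. The sources used here do not name what the compounds were dissolved in, so any effect of a solvent and that of a compound cannot be told apart. With a single library for each treatment, differences have no replicate check and treatments could not be tested, and every interval below covers counting error only.

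Ribosomal proteins assemble with ribosomal RNA into the small subunit, which decodes the message, and the large subunit, which forms the peptide bond. Their messages are among the most abundant in growing cells and mostly begin with a run of pyrimidines, the 5′ terminal oligopyrimidine (TOP) tract, through which their translation follows mTOR activity and the RNA-binding protein LARP1. A few genes have a paralog with an L in its name, several of which are used mainly in the testis or under stress.

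Expected counts over the rows with a gene identifier came to 19719922 with A740003, 19591531 with A438079 and 19358941 with PBS. Of the 85 genes, 82 averaged 1 CPM or more across the libraries and so passed the filter on low counts, among 12206 genes compared. All 12 hepatocyte and HepG2 markers were at 1 FPKM or more in each library. Of 7 markers of other cells, PTPRC, CDH5, COL1A1, COL1A2 and KRT5 were at 0 in each library. CD68 had 24.5, 29.7 and 30.9 FPKM with A740003, A438079 and PBS. EPCAM, an epithelial marker that HepG2 also expresses, had 181, 222 and 235 FPKM in the same order. The mitochondrial genome held 8.39%, 9.39% and 10.3% of counts in the same order, and the part of this difference in the results below was not tested.

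The start of the message was looked at first, because the TOP tract is the sequence that these genes are known to share. RefSeq promoter windows (GRCh38.p14) matched 68 of the 85 genes. A C followed by at least 4 pyrimidines, beginning within 10 bases of the annotated start on the gene's strand, was found in 59 of the 68 (86.8%), against 10494 of all 27303 genes in the table (38.4%). The median length of the longest such run was 11 bases in ribosomal protein genes with one and 6 bases in all genes with one. The letters CTTTC began in the same window on the gene's strand in 45.6% of the 68 genes and in 4.61% of all genes, and on either strand in 48.5% and 7.71%. The search for a C and pyrimidines can overlap that for CTTTC. Sequences centred on the annotated start are shown for the 6 genes whose scaled counts were at least 1.2-fold higher with A740003 than with PBS, with the longest run in capitals.
RPS28 (chr19:8321476-8321515, plus strand): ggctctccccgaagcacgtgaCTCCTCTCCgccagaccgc
RPS19 (chr19:41860235-41860274, plus strand): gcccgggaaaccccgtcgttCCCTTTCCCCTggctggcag
RPL36 (chr19:5690275-5690314, plus strand): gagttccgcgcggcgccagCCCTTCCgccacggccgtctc
RPLP1 (chr15:69452798-69452837, plus strand): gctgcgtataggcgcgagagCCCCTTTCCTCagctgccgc
RPLP2 (chr11:809947-809986, plus strand): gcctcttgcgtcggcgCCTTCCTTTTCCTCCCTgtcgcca
RPS12 (chr6:132814549-132814588, plus strand): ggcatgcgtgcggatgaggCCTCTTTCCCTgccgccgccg

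Of the 9 genes at least 1.2-fold lower with A740003 than with PBS, the windows of 7 are shown in the same way. RPL39, RPL26, RPS14, RPL21 and RPL22 had a run, and RPS27L and RPL7L1, both paralogs with an L in the name, had none in this window.
RPL39 (chrX:119791611-119791650, minus strand): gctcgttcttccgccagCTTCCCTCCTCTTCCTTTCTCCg
RPL26 (chr17:8383174-8383213, minus strand): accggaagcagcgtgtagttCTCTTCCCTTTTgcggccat
RPS14 (chr5:150449720-150449759, minus strand): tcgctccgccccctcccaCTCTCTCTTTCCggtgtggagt
RPL21 (chr13:27251538-27251577, plus strand): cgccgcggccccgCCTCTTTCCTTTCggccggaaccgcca
RPL22 (chr1:6199576-6199615, minus strand): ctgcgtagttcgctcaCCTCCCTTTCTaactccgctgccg
RPS27L (chr15:63157458-63157497, minus strand): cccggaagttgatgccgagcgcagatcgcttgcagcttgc
RPL7L1 (chr6:42879596-42879635, plus strand): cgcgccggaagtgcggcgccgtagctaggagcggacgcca

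Ribosomal protein genes made up 58 of the 100 highest genes by mean FPKM, the authors' value per length and library size. Over the 82 genes compared, FPKM ran from 44.8 to 6499 around a median of 2027 with A740003, from 49.4 to 7070 around 2015 with A438079, and from 60.4 to 8063 around 2307 with PBS. The 5 highest by mean FPKM were RPL37A (6499, 7070 and 8063 FPKM with A740003, A438079 and PBS), RPL41 (6463, 6255 and 7330), RPS29 (6054, 5390 and 6322), RPS15A (4996, 5035 and 6157) and RPS27 (4804, 4874 and 5674). The lowest gene without an L in its name was RPL9, with 93.6 FPKM, 108 FPKM and 114 FPKM in the same order. Most of these proteins stand in equal number in the ribosome. With the paralogs left out, the highest FPKM was 69.4-fold, 65.5-fold and 70.6-fold the lowest in the A740003, A438079 and PBS libraries. RPL9 alone sets the lower end of this range, while the medians without the paralogs were 2081, 2061 and 2368 FPKM. FPKM of very short genes rests on an estimated length, which the counts and FPKM of RPS29 put at only 55.2 nt in the PBS library.

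**Figure D1:**
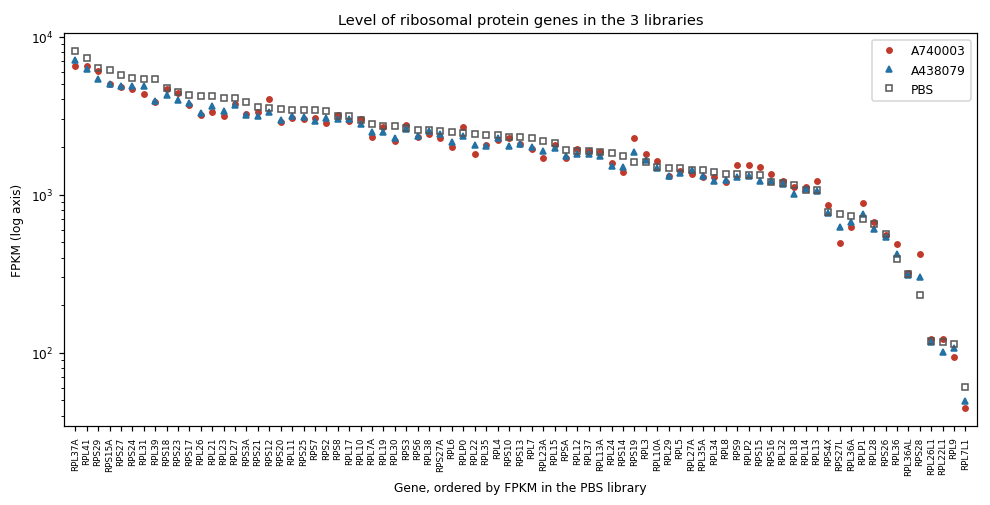
FPKM (log axis) of 79 of the 82 ribosomal protein genes compared, ordered by their level in the PBS library, with 1 point per library. Most genes lie between 1000 and 8063 FPKM, and RPL26L1, RPL22L1, RPL9 and RPL7L1 lie lowest, at 44.8 to 122 FPKM in all 3 libraries.

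As a pool, the ribosomal protein messages took 7.12% of counts (7.11 to 7.13%) in the A740003 library, 7.12% (7.11 to 7.13%) in the A438079 library and 7.40% (7.39 to 7.41%) in the PBS library, with 95% Clopper-Pearson intervals in brackets. Leaving out counts of the mitochondrial genome gave 7.77%, 7.86% and 8.25%. The share was therefore lower in both antagonist libraries by more than counting error, with or without mitochondrial counts, but no replicate shows how far it varies between libraries of 1 treatment. Weighted by FPKM, the pool was 21.1%, 20.3% and 21.3%. Large subunit messages were 57.6%, 58.0% and 58.0% of the pool. In bulk RNA, fewer cells of a type and less RNA per cell cannot be told apart.

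The first comparison set A740003 against PBS. Few of the 82 genes differed much: 1 was at least 1.5-fold higher with an interval that excluded 1, against 3.13% of all genes compared, and 0 were lower by that size, against 10.7% of all genes. At 1.2-fold, 6 were higher (14.7% of all genes) and 9 were lower (18.9% of all genes). At any size, the interval lay above 1 for 26 of the 82 and below 1 for 40 of the 82, against 26.2% and 26.8% of all genes. Counts of these genes are high, so small ratios exclude 1 in them where they would not in most genes. Within 1.5-fold lay 98.8% of the 82, and 99.2% of 3293 other genes with at least 1000 counts in every library. The median log2 ratio of counts was -0.03 over the 82 genes, -0.04 over the 50 of the large subunit and 0.0052 over the 32 of the small subunit, beside 0.0008 over all genes. The median over the 82 was above 0 under upper quartile scaling (0.028), which moved the median of all genes to 0.058. Over only the 11 genes compared that had whole counts in all libraries, the median was 0.062.

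RPS28, a protein of the head of the small subunit near the exit of the messenger RNA channel, stood highest in this comparison (ENSG00000233927, from 8321158 to 8323340 of the plus strand of chromosome 19 in GENCODE release 29, GRCh38). It had 2539 counts with A740003, 1913 counts with A438079 and 1360 counts with PBS. The A740003 library was highest and the PBS library lowest. The ratio of scaled counts was 1.82 (1.70 to 1.95) for A740003 over PBS and 1.41 (1.31 to 1.51) for A438079 over PBS. Its counts were not whole, and 10.3% of the summed counts of RPS28 and its pseudogenes in the PBS library lay in the pseudogene rows, so reads may be split among them. Summed with these rows, the ratios were 1.92 (1.81 to 2.05) and 1.47 (1.37 to 1.57).

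RPS19, a small subunit protein whose loss on 1 allele causes Diamond-Blackfan anaemia, had 11848 counts with A740003, 9978 counts with A438079 and 8086 counts with PBS. The ratio to PBS was 1.43 (1.39 to 1.47) with A740003 and 1.24 (1.2004 to 1.27) with A438079. RPL36, a protein of the large subunit, had 3235, 2603 and 2252 counts in the same order, with ratios of 1.40 (1.33 to 1.48) and 1.16 (1.09 to 1.23). By FPKM the A740003 ratio of RPL36 was smaller, at 1.23. RPS19 and RPL36 had whole counts in every library, and in both, as in RPS28, the A438079 count lay between those of the other libraries.

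The acidic proteins of the stalk, the arm of the large subunit that recruits the elongation factors, were higher together with A740003. RPLP1 had 13279, 11600 and 10008 counts with A740003, A438079 and PBS, and ratios to PBS of 1.29 (1.26 to 1.33) and 1.16 (1.13 to 1.19). RPLP2 had 6249, 5460 and 4906 counts, and ratios of 1.24 (1.196 to 1.29) and 1.11 (1.07 to 1.16). RPLP0, which anchors both to the ribosome, had 43809, 38472 and 38750 counts. Its ratio was 1.103 (1.09 to 1.12) with A740003, under the 1.2-fold size, and 0.995 (0.981 to 1.01) with A438079, an interval that includes 1. The last of the 6 genes was RPS12, a protein of the small subunit head, with 19566, 16533 and 15721 counts and ratios of 1.21 (1.19 to 1.24) and 1.05 (1.03 to 1.08). In all 6, chosen for a higher A740003 over PBS ratio, the A438079 count lay between those of the other libraries. By FPKM, 4 of the 6 remained at 1.2-fold, while the A740003 over PBS ratios of RPLP2 and RPS12 were 1.16 and 1.15. FPKM of RPLP2 (1551, 1318 and 1339 with A740003, A438079 and PBS) and of RPS12 (4037, 3320 and 3523) was lowest with A438079.

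RPS27L, the paralog of RPS27 and a known target of p53, was lowest over PBS with A740003. It had 4280 counts with A740003, 5234 counts with A438079 and 5882 counts with PBS, and no pseudogene row carries its name. The ratio to PBS was 0.710 (0.682 to 0.738) with A740003 and 0.891 (0.859 to 0.925) with A438079. RPL23A, which lies at the exit of the peptide tunnel, had 18360, 19535 and 23816 counts and ratios of 0.752 (0.737 to 0.766) and 0.822 (0.806 to 0.837). Pseudogene rows held 31.3% of its summed counts in the PBS library, and the ratios of the sums were nearer to 1, at 0.797 (0.785 to 0.810) and 0.885 (0.871 to 0.898).

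RPL39, a small protein that lines the peptide tunnel, had 10538 counts with A740003, 11144 counts with A438079 and 12961 counts with PBS, and ratios of 0.793 (0.773 to 0.814) and 0.861 (0.840 to 0.884). RPL23, which can bind the p53 inhibitor MDM2, had 23028, 25061 and 28085 counts and ratios of 0.7997 (0.786 to 0.814) and 0.894 (0.879 to 0.909). RPL26, which also lies near the tunnel exit, had 17107, 18148 and 20806 counts and ratios of 0.802 (0.786 to 0.818) and 0.874 (0.857 to 0.891). In all 3, chosen for a lower A740003 over PBS ratio, the A438079 count lay between those of the other libraries. RPS14, RPL21 and RPL22 had A740003 over PBS ratios of 0.815, 0.833 and 0.833. RPL7L1 completed the 9, with 2200 counts with A740003, 2311 counts with A438079 and 2647 counts with PBS, and ratios of 0.811 (0.766 to 0.858) and 0.875 (0.827 to 0.925). RPS14 is the small subunit protein whose gene is lost in the 5q- syndrome. Thus 7 of the 9 lower genes belonged to the large subunit, as did 50 of the 82 genes compared.

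**Figure D2:**
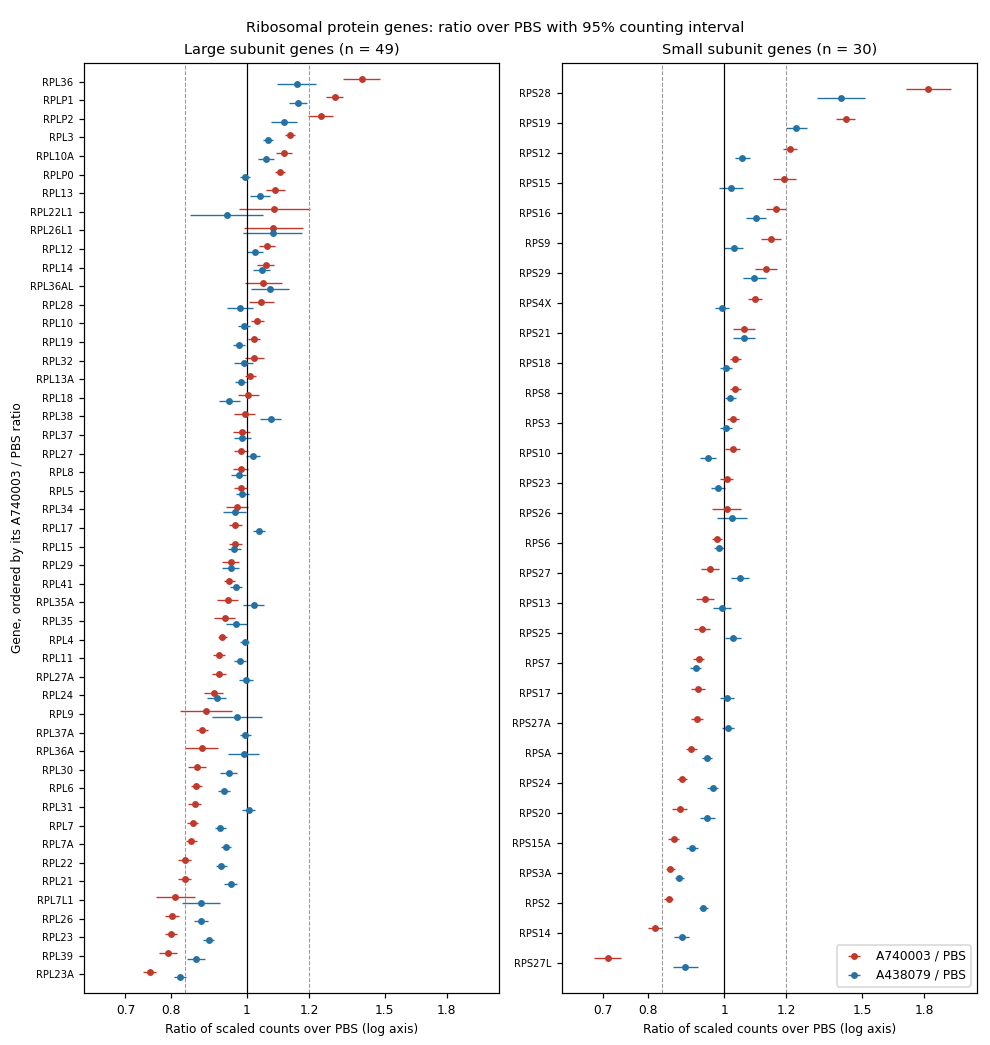
Ratio of scaled counts over PBS (log axis) of each gene in the A740003 and A438079 libraries, with the 95% counting interval as a bar, for 49 large subunit genes (left) and 30 small subunit genes (right). Dashed lines mark 1.2-fold. RPS28 stands at 1.82 and 1.41, RPS27L at 0.710 and 0.891, and most other genes lie between the dashed lines.

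Other genes with well-known roles lay closer to PBS. RPS6, the substrate of the S6 kinases, had 33007, 32351 and 32913 counts with A740003, A438079 and PBS, and ratios of 0.978 (0.963 to 0.993) and 0.985 (0.970 to 0.9999). RPSA, also known as the laminin receptor, had 29487, 30053 and 31678 counts and ratios of 0.908 (0.894 to 0.922) and 0.9504 (0.935 to 0.966). RPL5 and RPL11, which carry the 5S ribosomal RNA and can bind MDM2 when assembly fails, had A740003 over PBS ratios of 0.982 and 0.922, and A438079 over PBS ratios of 0.987 and 0.980. RPS27A, made as a fusion with ubiquitin, stood at 0.924 and 1.01.

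Next, A438079 was set against the same PBS library, so the ratios of both antagonists share their denominator and are given side by side only. With A438079, 0 of the 82 genes reached 1.5-fold in either direction, against 1.61% of all genes higher and 9.47% lower. At 1.2-fold, RPS28 and RPS19 were higher (2 of 82, against 9.15% of all genes) and RPL23A was lower (1 of 82, against 16.9% of all genes). At any size, 20 of the 82 had an interval above 1 and 34 had one below 1, against 23% and 23.2% of all genes. The median log2 ratio was -0.02 over the 82 genes, -0.02 in the large subunit and -0.0019 in the small subunit, beside -0.0037 over all genes. The 5 highest were RPS28 (1.41), RPS19 (1.24), RPLP1 (1.16), RPL36 (1.16) and RPLP2 (1.11). The 5 lowest were RPL23A (0.822), RPL39 (0.861), RPL26 (0.874), RPL7L1 (0.875) and RPS3A (0.877). RPS3A, a protein at the platform of the small subunit, had 38706 counts with A438079 and 44239 counts with PBS, and an interval of 0.865 to 0.889.

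The third comparison set A740003 directly against A438079, at the same dose and time. Again 0 of the 82 genes reached 1.5-fold, against 2.44% of all genes higher and 2.8% lower. At 1.2-fold, RPS28 and RPL36 were higher with A740003 (2 of 82, against 7.13% of all genes), with ratios of 1.29 (1.22 to 1.37) and 1.21 (1.15 to 1.27). RPS27L was lower (1 of 82, against 7.39% of all genes), with a ratio of 0.796 (0.764 to 0.829). At any size, 30 had an interval above 1 and 37 had one below 1, against 15.6% and 17.4% of all genes. The next highest were RPS15 at 1.17 (1.13 to 1.21), RPS19 at 1.16 (1.13 to 1.19) and RPS12 at 1.15 (1.13 to 1.18). RPS15, a protein of the small subunit head needed for export of that subunit from the nucleus, had 7233 counts with A740003 and 6020 counts with A438079. The next lowest were RPL31 at 0.853 (0.836 to 0.870), RPL21 at 0.873 (0.857 to 0.890), RPL37A at 0.881 (0.866 to 0.896) and RPL36A at 0.884 (0.843 to 0.927). For RPL36A, 40.2% of the counts summed with its pseudogene and readthrough rows in the PBS library lay outside its own row, and the ratio of the sums was 0.940 (0.908 to 0.974). The median log2 ratio was -0.0088 over the 82 genes and -0.0034 over all genes.

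The ratios spread less around their median than those of all genes. Beside other abundant genes, they spread clearly less only for A438079 over PBS. The SD of the log2 ratio over the 82 genes, all at 5 CPM or more, was 0.21 for A740003 over PBS, 0.11 for A438079 over PBS and 0.12 for A740003 over A438079. Over all 9559 genes at 5 CPM or more it was 0.38, 0.34 and 0.25. Much of that gap went with abundance: over 3293 other genes with at least 1000 counts in every library the SD was 0.21, 0.17 and 0.13. Of the ribosomal protein genes 81.7%, 96.3% and 96.3% lay within 1.2-fold in the 3 comparisons, against 78.1%, 87.0% and 96.1% of these abundant other genes. Within 1.5-fold the values were 98.8%, 100% and 100%, against 99.2%, 99.7% and 99.7%. The 78 mitochondrial ribosomal protein genes, which serve the separate ribosome of that organelle, had median log2 ratios of -0.05, -0.02 and -0.01.

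Ratios varied with the base composition of the gene, most clearly where A740003 was compared. Over the 82 genes, the log2 ratio of A740003 over PBS and the G+C content of the coding sequence had a Pearson r of 0.55 and a Spearman rho of 0.54, given as a description because the genes share their libraries. Without the 2 genes farthest from the median G+C, r was 0.50. For A438079 over PBS r was 0.42 and rho 0.36, and for A740003 over A438079 r was 0.56 and rho 0.57. In the 28 genes of lowest G+C content (40.4 to 47.5%), 4 had an A740003 over PBS log2 ratio above 0 and the median was -0.18. In the 27 genes of middle G+C content 11 were above 0 and the median was -0.06, and in the 27 of highest G+C content (54.0 to 63.0%) 21 were above 0 and the median was 0.05. For A438079 over PBS the same 3 ranges were not in order, with medians of -0.05, -0.0037 and -0.01 and 7, 13 and 12 genes above 0. RPS28 and RPS19 have 62.3% and 58.2% G+C, and RPS27L has 42.1%.

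Over all 9127 genes at 5 CPM or more with a coding sequence the relation ran the other way, with r of -0.42 for A740003 over PBS and -0.48 for A438079 over PBS, and was near 0 for A740003 over A438079 (-0.04). Among 457 genes outside the family with an implied length under 600 nt, which is like that of ribosomal protein messages, r was 0.38, 0.15 and 0.38. Their medians for A740003 over PBS were -0.06, 0.06 and 0.20 in the same 3 ranges of G+C. The part of base composition and length in the ratios of single genes was not tested. Setting each gene against the 200 genes outside the family nearest to it in transcript G+C and length left RPS28 at 1.82, RPS19 at 1.52, RPLP1 at 1.31, RPL36 at 1.27, RPS12 at 1.15, RPLP2 at 1.11 and RPS27L at 0.621 for A740003 over PBS. The number at least 1.2-fold higher stayed at 6, but only 4 of the 6 were shared: RPLP2 and RPS12 dropped out, and RPL13 (1.34) and RPL28 (1.23) came in. The length used was that of a single annotated transcript per gene, 4498 nt for RPL13 and 4796 nt for RPL28. Their PBS counts and FPKM implied only 447 and 444 nt, and their ratios before the step were 1.09 and 1.04. Of the 9 lower genes, 8 were among the 11 lower after this step, and RPL21 (0.845) was not.

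**Figure D3:**
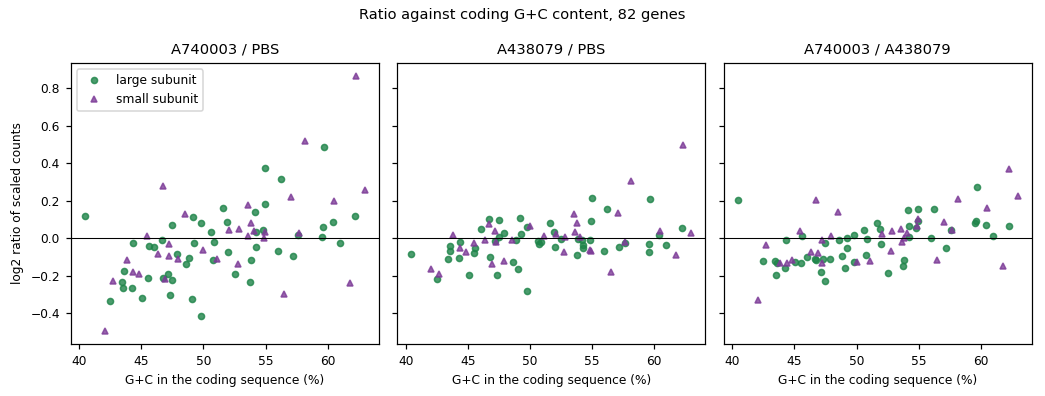
Log2 ratio of scaled counts against the G+C content of the coding sequence for the 82 genes, with circles for the large subunit and triangles for the small subunit, in the 3 comparisons. Points rise from left to right in A740003 over PBS (r = 0.55) and in A740003 over A438079 (r = 0.56) and less in A438079 over PBS (r = 0.42).

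The position of the genes was looked at after these values were seen. The 82 genes are spread over many chromosomes, and 12 lie on chromosome 19, RPS28, RPS19, RPL36 and RPS15 among them. Their median log2 ratio for A740003 over PBS was 0.14, with 12 of 12 above 0, while the median of the 70 on other chromosomes was -0.07. For A438079 over PBS the medians were 0.02 and -0.02, with 7 of 12 on chromosome 19 above 0. For A740003 over A438079 they were 0.09 and -0.04, with 12 of 12 above 0. The 517 other genes on chromosome 19 had medians of -0.09, -0.09 and 0.00 in the 3 comparisons. The chromosome 19 genes also have a high median coding G+C content, 59.6% against 49.2% for the rest of the family, so position and base composition cannot be told apart here.

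The authors' FPKM gave lower ratios over PBS than the counts did. By FPKM the median log2 ratio over the 82 genes was -0.10 for A740003 over PBS, with 26 of 82 above 0, and -0.13 for A438079 over PBS, with 7 of 82 above 0, beside -0.01 and -0.05 over all genes. By counts, 36 and 32 of the 82 were above 0. For A740003 over A438079 the FPKM median was 0.04 and 48 of 82 were above 0. RPS29, the shortest by implied length, had 7833, 7374 and 6765 counts with A740003, A438079 and PBS, and 6054, 5390 and 6322 FPKM. Its ratios to PBS were thus 1.13 and 1.09 by counts but 0.958 and 0.852 by FPKM.

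The length implied by a gene's count and FPKM was longer in both antagonist libraries. Over the 82 genes the median difference from PBS was 15.8 nt with A740003 and 23.8 nt with A438079, on a median length of 364 nt in the PBS library. The 5392 other genes with at least 500 counts had medians close to these, 16.6 nt and 24.3 nt, on a median length of 2230 nt, but a much wider spread. Their quartiles were -30.4 and 88.8 nt with A740003 and -27.3 and 72.9 nt with A438079, against 12.6 and 16.8 nt and 19.8 and 24.7 nt in the ribosomal protein genes. Counts are used here for ratios, and FPKM for levels between genes. The part of this shift in the count ratios was not tested.

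**Figure D4:**
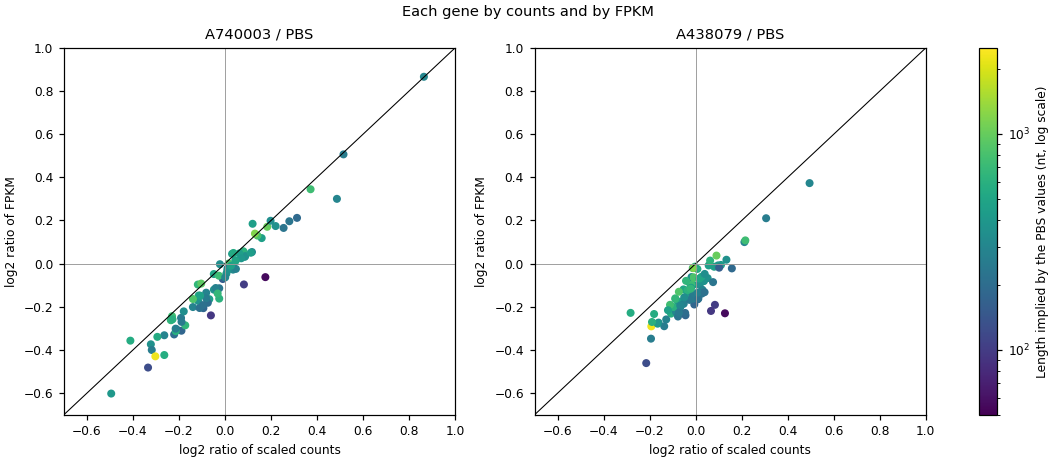
Log2 ratio over PBS by FPKM (vertical axis) against the log2 ratio by scaled counts (horizontal axis) for the 82 genes, with A740003 on the left and A438079 on the right. Colour gives the length implied by the PBS values on a log scale, and the diagonal marks equal ratios. Most points lie under the diagonal, and the shortest gene, RPS29, lies far under it in both panels.

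Genes with and without a pyrimidine run at the start both had medians near 0. The 59 genes with a run had median log2 ratios of -0.01 for A740003 over PBS, -0.01 for A438079 over PBS and 0.00 for A740003 over A438079. The 8 compared genes without one in this window (RPL6, RPL7L1, RPL17, RPL26L1, RPL27, RPS4X, RPS27L and RPS29) had medians of -0.04, 0.01 and -0.07. RPL39, with a run of 22 bases, stood at 0.793 times PBS with A740003, and RPLP2, with a run of 17 bases, at 1.24 times.

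The paralogs with an L in the name were mostly minor. RPL10L had 0 counts in each library, which allows up to 3 counts in each. RPL39L had 0 counts with A740003, 1 count with A438079 and 0 counts with PBS, and RPL3L had 6, 5 and 1 counts. None of these 3 was compared. RPL3L is known from heart and skeletal muscle, and RPL10L and RPL39L from the testis. The coding sequences of the pairs were 58.4% (RPL7L1 and RPL7) to 94.8% (RPL39L and RPL39) identical, so reads of the closest pairs may be split.

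Among the 5 paralogs that were measured, RPL36AL had the highest level against its partner, at 51.4% of the FPKM of RPL36A with A740003, 46.5% with A438079 and 42.4% with PBS. These percentages use the RPL36A row alone, while 40.2% of its summed PBS counts lay in pseudogene and readthrough rows. The A740003 over PBS ratio of RPL36A was 0.876 in its own row and 0.989 (0.954 to 1.02) summed with these rows. RPS27L had 10.4%, 12.8% and 13.3% of the FPKM of RPS27. The level of RPS27 itself was 0.958 (0.932 to 0.985) times PBS with A740003 and 1.05 (1.02 to 1.08) times with A438079 by counts. RPL22L1, whose mouse counterpart is held down by RPL22, had 784, 663 and 705 counts with A740003, A438079 and PBS. Its ratios to PBS were 1.08 (0.978 to 1.202) and 0.942 (0.846 to 1.05), intervals that include 1, and its ratio for A740003 over A438079 was 1.15 (1.04 to 1.28). RPL22 stood at 0.833 (0.818 to 0.848) and 0.928 (0.912 to 0.945) times PBS, and RPL22L1 held 6.78%, 4.89% and 4.87% of its FPKM. RPL36AL stood at 1.05 (0.993 to 1.11) times PBS with A740003 and at 1.07 (1.01 to 1.13) times with A438079, and RPL26L1 at 1.08 (0.991 to 1.18) and 1.08 (0.989 to 1.18) times. RPL26L1 held 3.86%, 3.58% and 2.82% of the FPKM of RPL26, and RPL7L1 held 2.32%, 2.46% and 2.64% of that of RPL7.

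**Figure D5:**
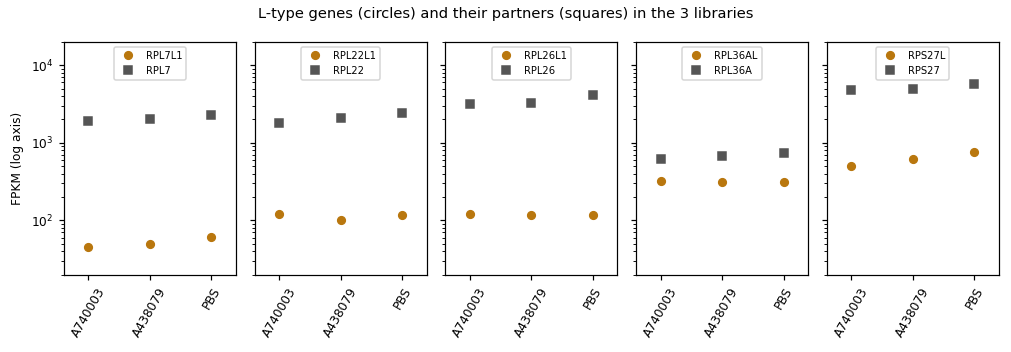
FPKM (log axis) of 5 paralogs with an L in the name (circles) and of their partners (squares) in the A740003, A438079 and PBS libraries, 1 point per library. RPL36AL lies closest to its partner, RPS27L is lowest with A740003, and the other 3 lie far under their partners in every library.

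Genes that work with ribosomal proteins were counted from lists of their own. The counts stand beside all genes compared, of which 14.7% were 1.2-fold higher and 18.9% lower with A740003. With A438079 these shares were 9.15% and 16.9%. FAU, whose product is a ribosomal protein fused to a ubiquitin-like protein, and RACK1, a scaffold on the small subunit, had A740003 over PBS ratios of 1.16 and 1.198 and A438079 over PBS ratios of 1.02 and 1.09. Of 16 other TOP messages compared, 0 were 1.2-fold higher or more and 3 lower with A740003, and 1 higher and 1 lower with A438079. With A740003 the elongation factor genes EEF1B2 and EEF2 had ratios to PBS of 0.801 and 0.828, and EIF3F, a subunit of an initiation factor, had 0.723. EIF4A2 lay just under the 1.2-fold size with A740003, at 1.199 (1.17 to 1.23). It was the 1 higher with A438079, at 1.21 (1.18 to 1.24). HNRNPA1 and EIF4B had A740003 over PBS ratios of 1.15 and 1.14. Of 11 host genes of small nucleolar RNAs of the TOP class, 4 were 1.2-fold higher or more and 0 lower with A740003, and 0 in either direction with A438079. ZFAS1 had 1819 counts with A740003, 1445 counts with A438079 and 1350 counts with PBS. Its ratio was 1.31 (1.22 to 1.41) for A740003 over PBS and 1.07 (0.995 to 1.16) for A438079 over PBS. By FPKM these ratios of ZFAS1 were 1.18 and 0.911. The A740003 over PBS ratios by FPKM were 1.17 for SNHG1, 1.15 for SNHG32 and 1.23 for SNHG12. Of the 4 host genes, only SNHG12 thus passed 1.2-fold by FPKM.

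Of 39 ribosome biogenesis genes, 3 passed 1.2-fold upward and 6 downward with A740003, and 4 higher and 2 lower with A438079. MDN1 and UTP20, which act in the maturation of the large and the small subunit, had A740003 over PBS ratios of 1.36 and 1.35 and A438079 over PBS ratios of 1.31 and 1.30. BOP1, also of large subunit maturation, stood at 0.564 (0.480 to 0.662) and 0.617 (0.527 to 0.722) times. Of 23 regulators of TOP messages and of ribosome genes, 3 were higher and 6 lower with A740003, and 2 higher and 5 lower with A438079. RPTOR, the mTORC1 subunit that holds its substrates, had 109 counts with A740003, 164 counts with A438079 and 307 counts with PBS, and ratios to PBS of 0.346 (0.276 to 0.432) and 0.535 (0.440 to 0.649). LARP1 had 1784, 2089 and 2412 counts and ratios of 0.721 (0.678 to 0.767) and 0.868 (0.818 to 0.920). The 3 regulators higher with A740003 were MAX, LARP4 and MTOR itself, with A740003 over PBS ratios of 1.37, 1.22 and 1.2007. Their A438079 over PBS ratios were 1.36, 1.15 and 1.19. By FPKM the A740003 over PBS ratios of MAX, LARP4 and MTOR were 1.28, 1.19 and 1.12, so only MAX passed 1.2-fold. RPTOR and LARP1, both among the 6 lower, stood at 0.397 and 0.707 by FPKM.

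Of 11 chaperones of ribosomal proteins compared, 0 stood higher at 1.2-fold and 2 lower with A740003, and 0 higher and 1 lower with A438079. PDCD2, the chaperone of RPS2, stood at 0.709 and 0.880 times PBS, and RPS2 itself at 0.849 (0.838 to 0.861) and 0.940 (0.928 to 0.953) times. Of 10 genes of ribosomal stress and p53, 1 was higher and 3 lower with A740003, and 1 higher and 2 lower with A438079. BAX, a p53 target, stood at 1.39 and 1.33 times PBS, and SESN2, another, at 0.576 and 0.679 times. Of 9 genes of ribosome quality control, 3 were higher and 1 lower with A740003, and 1 higher and 1 lower with A438079. For LTN1, the ubiquitin ligase of stalled large subunits, the ratios were 1.40 and 1.23, and for ZNF598, a sensor of collided ribosomes, they were 0.503 (0.390 to 0.646) and 0.448 (0.342 to 0.582). Over all genes, 14.7% passed 1.2-fold upward and 18.9% downward with A740003, and 9.15% higher and 16.9% lower with A438079.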

How the data were processed

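Per the labels' protocols, HepG2 RNA was extracted with an RNeasy kit and sequenced as SMARTer mRNA libraries. The authors deposited expected counts per gene, which need not be whole (33.3 to 35.1% of values above 0 were not), and FPKM per gene, scaled for length and library size. The submitters' processing notes name GRCm38, an assembly of the mouse, while the gene identifiers are human. How reads were aligned and counted, the annotation and the use of strand are not given in the sources used, so overlapping and antisense genes are uncertain.

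Counts were rounded, and 116 rows without a gene identifier (0.0775 to 0.0853% of counts) were left out. Libraries were scaled with TMM in edgeR 4.0.16 (factors 1.01, 0.989 and 1.00 for A740003, A438079 and PBS). Genes averaging 1 CPM or more were compared as ratios of scaled counts with the exact conditional binomial (Clopper-Pearson) 95% interval. A gene was counted as higher or lower when the ratio passed 1.5-fold (or 1.2-fold) and the interval excluded 1. A pseudocount of 0.5 counts was added for log2 ratios. Over all genes 1 CPM was 19.4 to 19.7 counts, so precision is set by counting for low genes. The fixed design did not assume estimated counts, and the same steps were run on the rounded values. Counts were whole within 0.005 in all libraries for 11 of the 82 genes compared.

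Positions, coding sequences and G+C came from GENCODE release 29, and start windows from RefSeq. Coding identity of paralogs was computed in place of protein identity. The steps were tested on simulated data. The genes described were set by rule: the 5 genes at either end of each comparison, the 5 highest by FPKM (by level), each L-type paralog, RPLP0, RPLP1, RPLP2, RPSA and RPS6, and up to 4 genes of each related list. RPL5, RPL11, RPS27A, RPS2, RPL9, RPL13, RPL28, MAX, LARP4 and MTOR were added after their values were seen. Results for some single genes are not reported here. Members and lists were chosen with earlier results of these data known. The alternatives were scaling by total counts, by upper quartile or by DESeq2 1.42.0 size factors, other filters and fold sizes, FPKM with pseudocounts of 1 and 0.1, sums with pseudogene rows, a G+C and length step, whole counts only and leaving out L-type paralogs. After the data were seen, FPKM centred on all genes and leaving out the 3 genes whose pseudogene and readthrough rows held over 10% of the summed PBS counts were added.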

Additional observations from a re-analysis of the deposited data

How the results depend on the processing

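With 1 library per treatment, no library could be left out. No paired analysis was possible because each treatment has 1 library. The count at 1.5-fold stayed at 0 in both directions under every alternative run for A438079 over PBS and for A740003 over A438079. For A740003 over PBS, the 1 gene higher at 1.5-fold became 2 with the G+C and length step, and 0 with whole counts only, with a fold of 2, or without the 3 genes with many pseudogene counts, a choice that leaves out RPS28 itself. The 0 lower became 1 by FPKM with either pseudocount, by centred FPKM and with the G+C and length step. At 1.2-fold, the 6 higher became 3 with whole counts only, for which 11 genes remain, and 4 by FPKM, all among the 6, without RPLP2 and RPS12. With the G+C and length step 6 were higher, of which 4 were among the original 6. The 9 lower became 4 under upper quartile scaling, 16 by FPKM with either pseudocount, 15 by centred FPKM and 0 with whole counts only. For A438079 over PBS, the 2 higher became 1 by FPKM (either pseudocount, or centred), with whole counts only and without the 3 genes. The 1 lower became 0 under upper quartile scaling, with whole counts only, with summed pseudogenes and without the 3 genes, 7 by FPKM with either pseudocount, 2 by centred FPKM and 3 with the G+C and length step. For A740003 over A438079, the 2 higher became 5 by FPKM with either pseudocount and 1 with the G+C and length step, with whole counts only and without the 3 genes, and the 1 lower became 0 with whole counts only and without L-type paralogs.

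Median log2 ratios, all close to 0, moved, and several changed sign. For A740003 over PBS, the members, large subunit and small subunit medians were 0.028, 0.013 and 0.062 under upper quartile scaling, -0.097, -0.105 and -0.080 by FPKM with either pseudocount, -0.085, -0.093 and -0.068 by centred FPKM, -0.083, -0.100 and -0.069 with the G+C and length step, and 0.062, 0.034 and 0.082 with whole counts only. For A438079 over PBS, they were 0.032, 0.026 and 0.047 under upper quartile scaling, -0.133, -0.122 and -0.146 by FPKM with either pseudocount and -0.093, -0.082 and -0.106 by centred FPKM, while whole counts only gave 0.029 for all members and 0.083 for the small subunit. For A740003 over A438079, FPKM with either pseudocount gave 0.042, 0.033 and 0.071, centred FPKM gave 0.045 for the small subunit, whole counts only gave 0.080 for all members and 0.085 for the large subunit, and the G+C and length step gave -0.068 for the large subunit. The share of counts was 7.77%, 7.86% and 8.25% without mitochondrial counts and 7.21%, 7.22% and 7.49% with pseudogene rows, and the FPKM share of 21.1%, 20.3% and 21.3% was 7.12%, 7.12% and 7.40% by counts. Apart from whole counts only and upper quartile scaling, whose construction changes the genes or the scale, the cause was not tested. Depth limits little here, since 82 genes had at least 500 counts in each library, but intervals do not cover the spread between cultures.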

Other observations

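Rows for pseudogenes of these ribosomal proteins were not part of the comparisons. Of 1601 such rows, 279 had counts with A740003, 269 with A438079 and 265 with PBS. Together they held 0.0794%, 0.0861% and 0.0831% of counts. The 7 readthrough rows held 1749, 1876 and 1576 counts in the same order. Pseudogene rows of RPS28 held 454 counts with A740003, 307 counts with A438079 and 157 counts with PBS, and those of RPL23A held 9990, 11101 and 10874 counts. Whether the reads in these rows come from the pseudogenes or from the parent gene was not tested.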
